A study of Saccharomyces cerevisiae with 15 samples.

Results

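The galactose regulon was followed here as 10 genes of budding yeast, of 7127 in the count table: GAL2 (YLR081W), GAL1 (YBR020W), GAL7 (YBR018C), GAL10 (YBR019C), PGM2 (YMR105C), GAL3 (YDR009W), GAL80 (YML051W), GAL4 (YPL248C), GCY1 (YOR120W) and MTH1 (YDR277C). They were chosen by name, as genes of galactose uptake, galactose breakdown and the switch that controls them. All 10 had enough reads to be tested in every comparison. The series asked how an overproduced mitochondrial protein or a mitochondrial targeting sequence (MTS, the presequence that directs a protein into mitochondria) alters transcription, and galactose was the tool that switched the overproduction on.

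Messenger RNA was sequenced from 15 libraries, 3 biological replicates of each of 5 groups. PSD1OE pdr3Δ cells and PSD1OE cells overexpressed PSD1, which encodes the phosphatidylserine decarboxylase of the mitochondrial inner membrane. MTSMge1 pdr3Δ cells and MTSMge1 cells overexpressed residues 1 to 44 of Mge1, a mitochondrial Hsp70 cofactor, fused to the fluorescent protein mCherry. MTSMss116 cells overexpressed residues 1 to 53 of Mss116, a mitochondrial RNA helicase, fused to mCherry, and served as the reference for the other presequence. In the pdr3Δ groups HIS3 replaces PDR3, which encodes a zinc-cluster activator of drug resistance genes. All strains were haploid W303 MATa with ade2-1, leu2-3, ura3, trp1-1 and his3-11,15, all carried URA3 with the construct, and all were grown in 2% raffinose and given 1% galactose for 4 h. Each construct was driven by the GAL1-10 promoter, the same promoter that drives the chromosomal GAL1 and GAL10. The strain list places the constructs on a 2-micron plasmid, except for the PSD1OE strain with PDR3, for which it names no plasmid, and the labels call every strain a carrier of an empty 2-micron plasmid. No library came from cells without galactose. Levels after 4 h were therefore compared between groups, and no fold of induction could be computed.

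Yeast cells take up galactose through the permease Gal2 and convert it to a glucose phosphate by the Leloir pathway, in which Gal1 is the galactokinase, Gal7 the uridylyltransferase and Gal10 the epimerase. Pgm2, the major phosphoglucomutase, links that pathway to glycolysis. Gal4 is the activator that binds the promoters of these genes, Gal80 binds Gal4 and blocks it, and Gal3 is the galactose sensor that frees Gal4 from Gal80. GCY1, a glycerol dehydrogenase gene, and MTH1, which encodes a repressor in glucose sensing, are further genes with Gal4 binding at their promoters. Glucose shuts the system off through repressors such as Mig1, and raffinose leaves it neither repressed nor induced.

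The DNA letters that Gal4 reads are the triplets CGG and CCG separated by 11 bases, a motif that reads the same on both strands. They are shown because they are the feature that the members share beyond their names. In the RefSeq sequence of the R64 assembly, 9 of the 10 members held at least 1 such site in the 500 bases before the start codon, and PGM2 held none. Of all 6008 genes with such a window, 179 (2.98%) held at least 1 and 7 (0.117%) held 2 or more. GAL1, GAL10 and GAL2 were 3 of those 7. GAL1 and GAL10 are transcribed away from each other from a shared 668-base intergenic region, so that the same 3 sites lie before both genes, within chrII:278558-278631. That stretch of 74 bases reads as follows on the strand of GAL1, with the triplets in capitals.
GAL10-GAL1 stretch: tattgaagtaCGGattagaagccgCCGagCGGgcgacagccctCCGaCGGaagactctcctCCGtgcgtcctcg

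The 4 sites of GAL2 lay 312 to 416 bases before its start codon, and 2 of them overlapped each other. The remaining members held a single site, 156 to 172 bases before the start codon in GAL80 and 454 to 470 bases before it in GAL4. The sites below, each with 5 flanking bases per side on the strand of the gene, are those of GAL2, GAL7 and the 3 regulators. They lie at chrXII:289796-289812, chrXII:289815-289831, chrXII:289879-289895 and chrXII:289884-289900 for GAL2, chrII:275703-275719 for GAL7, chrIV:463146-463162 for GAL3, chrXIII:171422-171438 for GAL80 and chrXVI:82810-82826 for GAL4.
GAL2 site A: ggcacCGGcggtctttcgtCCGtgcgg
GAL2 site B: ccgtgCGGagatatctgcgCCGttcag
GAL2 site C: agtatCGGggcggatcactCCGaaccg
GAL2 site D: cggggCGGatcactccgaaCCGagatt
GAL7 site: gcgctCGGacaactgttgaCCGtgatc
GAL3 site: acgttCGGtccactgtgtgCCGaacat
GAL80 site: tttacCGGcgcactctcgcCCGaacga
GAL4 site: acagaCGGtggcgcaggatCCGgttta

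A match to these letters is a description of the sequence and does not show binding. Pdr3 binds a different arrangement of the same triplets, with CCGCGG as its core. A search for it, added after the expression values had been seen, found that core before 190 genes (3.16%) and before 1 member, GAL7, at chrII:275994-275999, 467 to 472 bases from the start codon. It is printed with its flanks as the only such core before a member, and binding of Pdr3 there was not tested.
GAL7 Pdr3-type core: gcacgagCCGCGGagttcat

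**Figure D1:**
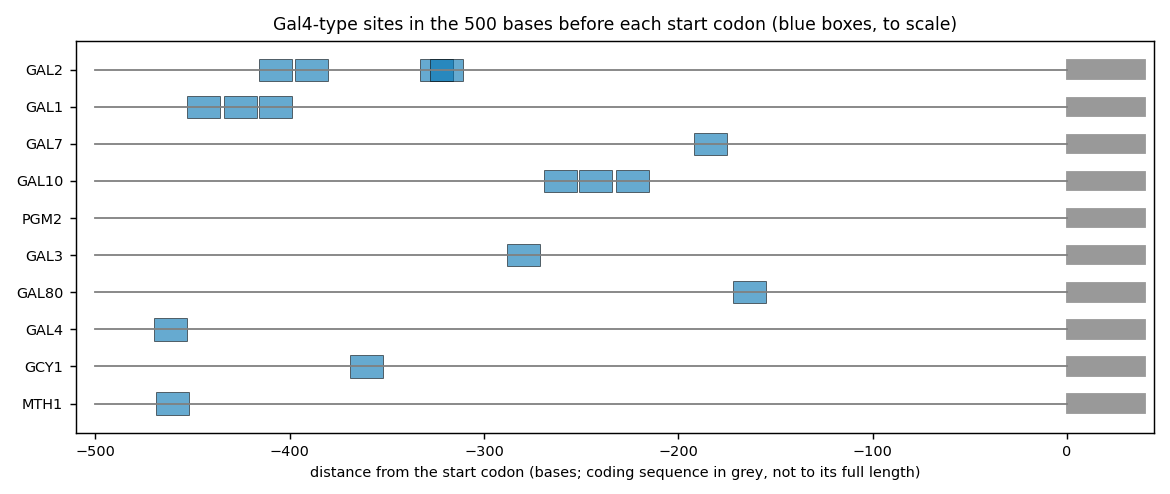
Positions of the Gal4-type sites (blue boxes) in the 500 bases before the start codon of each member, with the distance in bases on the horizontal axis and 1 gene per row. GAL1 and GAL10 share 3 sites seen from opposite sides, GAL2 has 4, of which 2 overlap, and PGM2 has none.

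The libraries held 9128344 to 15953662 counts each, with a median of 12181171. Each member had at least 578 counts in every library, the lowest being GAL4. PDR3 had at most 1 count in the pdr3Δ libraries, and PSD1, MGE1 and MSS116 were each far higher in their own construct's groups, so that no library went against its label. No stretch of 59 bases, the read length, occurred a second time in the genome for any member, and GAL1 and its closest relative GAL3 were identical at 70.0% of aligned bases.

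The members together took 2.12 to 2.94% of all counts of a library, and GAL1, GAL2, GAL7 and GAL10 alone took 1.94 to 2.69%. Set per kilobase of gene on CPM (read counts scaled to a common library size, with sizes normalized by the trimmed mean of M-values), the mean level over the 15 libraries was 5125 for GAL1. It was 3205 for GAL7, 3092 for GAL10 and 2892 for GAL2, so that the 4 genes of uptake and breakdown stood at the top. GCY1 followed with 700 CPM per kilobase, then GAL3 with 308, GAL80 with 283, MTH1 with 218, PGM2 with 81.3 and GAL4 with 23.7. The activator of the regulon was thus its least abundant transcript per length.

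GAL1 had 8521, 7758 and 8095 CPM in the PSD1OE pdr3Δ libraries, against 8442, 8411 and 8780 CPM in the PSD1OE libraries. It had 7920, 7710 and 8216 CPM in the MTSMge1 pdr3Δ libraries, against 7886, 8685 and 8131 CPM in the MTSMge1 libraries. The MTSMss116 libraries had 7373, 8023 and 8062 CPM. The highest of all 15 libraries was 1.19 times the lowest, the narrowest range among the 10 members. GAL1 passed the test in none of the comparisons between groups, and over the 6 pairs of groups the 95% intervals of its fold lay between 0.796 and 1.30.

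The other genes of uptake and breakdown ranged more widely. GAL2 ran from 4100 to 5830 CPM over all libraries, GAL7 from 3018 to 4295 CPM and GAL10 from 5210 to 7324 CPM, ranges of 1.42-fold, 1.42-fold and 1.41-fold. The order of the group means was not the same for these genes. GAL7 and GAL10 were highest in PSD1OE cells, at 3969 ± 283 and 7092 ± 116 CPM (SD, n = 3), while GAL2 was highest in MTSMge1 cells, at 5298 ± 530 CPM. GAL2 and GAL10 were lowest in MTSMss116 cells, at 4709 ± 528 and 5760 ± 516 CPM, and GAL7 in MTSMge1 pdr3Δ cells, at 3227 ± 219 CPM. Over the 10 members, 38 of the 40 pairs of neighbours in these orders differed by less than the sum of their SDs. The exceptions were in the regulators. GAL3 was higher in PSD1OE cells than in the group next below, PSD1OE pdr3Δ cells, and GAL4 was higher in MTSMss116 cells than in PSD1OE cells.

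Among the regulators, GAL80 kept to 323 to 406 CPM and GAL3 spanned 337 to 711 CPM, a 2.11-fold range. PGM2 had the widest range, 50.9 to 276 CPM or 5.42-fold, and that range lay inside the groups, since its group means differed by only 1.27-fold. The SD of PGM2 was 34.6% of the mean in PSD1OE pdr3Δ cells and 79.1% in MTSMss116 cells. GCY1 ran from 444 to 826 CPM and MTH1 from 225 to 320 CPM.

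**Figure D2:**
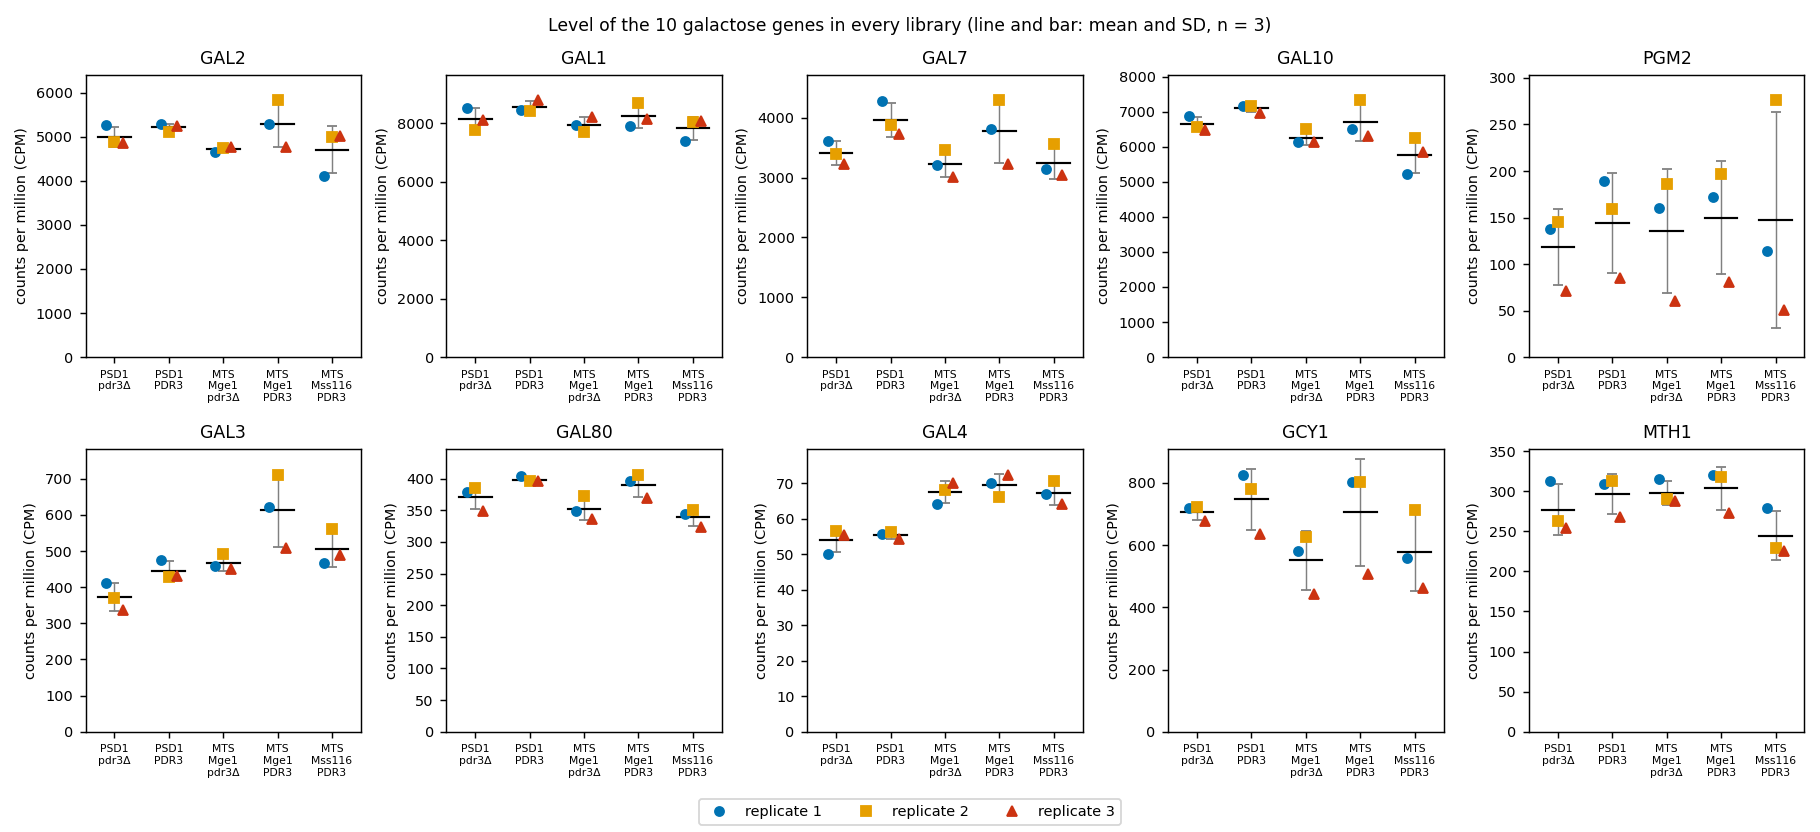
CPM (vertical axes, from 0) of each member in the 15 libraries, with groups along the horizontal axis and symbols marking the replicate number. Lines and bars are the mean and SD of 3 libraries. GAL1 stays between 7373 and 8780 CPM, GAL3 and GAL4 sit lower in the PSD1OE groups than in the MTSMge1 groups, and PGM2 is lowest in replicate 3 of every group.

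The clearest difference between constructs was in the regulators GAL3 and GAL4, both lower in PSD1OE than in MTSMge1 cells. GAL4 had 50.02, 56.6 and 55.5 CPM in PSD1OE pdr3Δ libraries, against 64.2, 68.2 and 70.1 CPM in MTSMge1 pdr3Δ libraries. In cells with PDR3 it had 55.8, 56.2 and 54.2 CPM in PSD1OE libraries, against 70.2, 66.2 and 72.4 CPM in MTSMge1 libraries. The groups did not overlap in either genotype, as for 28.0% of all genes tested in pdr3Δ cells and 26.9% with PDR3. Averaged over genotypes, GAL4 was 0.33 lower on the log2 scale (log2 fold change -0.33, SE 0.053, 6 libraries per side), with an edgeR adjusted p of 0.00116.

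GAL3, the galactose sensor, moved in the same direction. It had 412, 370 and 337 CPM in PSD1OE pdr3Δ libraries, against 460, 491 and 451 CPM in MTSMge1 pdr3Δ libraries. With PDR3 it had 475, 428 and 430 CPM in PSD1OE libraries, against 623, 711 and 508 CPM in MTSMge1 libraries. Again no library of one group reached into the other. The averaged log2 fold change was -0.40 (SE 0.085, edgeR adjusted p = 0.00591), a fold of 0.756 with a 95% interval of 0.665 to 0.859. Among cells with PDR3, the reference MTSMss116 lay between these constructs for GAL3, at 506 ± 49.6 CPM (SD, n = 3). Against it, GAL3 passed neither in PSD1OE (log2 fold change -0.17, SE 0.11, edgeR adjusted p = 0.396) nor in MTSMge1 cells (0.29, SE 0.15, edgeR adjusted p = 0.800). GAL3 was thus not shown to be lower than the reference in PSD1OE cells.

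GAL3 and GAL4 were the 2 members called among 10 in that averaged comparison, both lower, where 21.8% of all 6238 genes tested were called. That share of the members is close to the background. Both calls held under each of 20 alternatives, with adjusted p-values of 6.69e-05 to 0.0180 for GAL3 and 3.90e-07 to 0.00415 for GAL4. The median log2 fold change of the members was 0.027, against -0.010 over all genes tested. GAL80, the inhibitor that stands between Gal3 and Gal4, had an averaged log2 fold change of 0.04 (SE 0.052) and did not pass. The count of GAL3 reads per GAL80 read was accordingly 1.00 ± 0.070 in PSD1OE pdr3Δ cells, against 1.33 ± 0.013 in MTSMge1 pdr3Δ cells. It was 1.12 ± 0.055 in PSD1OE cells, against 1.57 ± 0.19 in MTSMge1 cells (SD, n = 3).

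Within 1 genotype at a time the calls were fewer. With PDR3, 1 member was called, GAL4, lower in PSD1OE (log2 fold change -0.34, SE 0.075, edgeR adjusted p = 0.0462), where 4.89% of all genes were called. GAL3 stood at -0.47 (SE 0.13, edgeR adjusted p = 0.0945). The call on GAL4 did not survive the loss of any 1 of the 6 libraries, without which its adjusted p was 0.0664 to 0.153, although its log2 fold change stayed between -0.30 and -0.36. Without MTSMge1 replicate 3, where 6.91% of all genes were called, GAL3 was called in its place (edgeR adjusted p = 0.0153), and over all alternatives its adjusted p ran from 0.00993 to 0.267. In pdr3Δ cells 3 members had an unadjusted p under 0.05, as had 1304 of 6161 genes tested. No member was called there, where 3.93% of all genes were called. That share changed with single libraries and was 0.0485% without MTSMge1 pdr3Δ replicate 1 and 5.25% without its replicate 3. There GAL4 had a log2 fold change of -0.32 (SE 0.085, edgeR adjusted p = 0.0843) and GAL3 one of -0.33 (SE 0.10, edgeR adjusted p = 0.127), and DESeq2 called both among 9.53% of all genes.

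The deviations of same-numbered libraries from their group means had r of 0.217 to 0.665 in these comparisons. That does not establish pairs. PSD1OE replicate 1 had r of 0.400 with MTSMge1 replicate 2, against 0.217 for PSD1OE replicate 2. The fits were repeated with the replicate number as a block, which takes the numbers as pairs. In these fits GAL3 and GAL4 were called lower in PSD1OE in both genotypes. Their edgeR adjusted p-values were 0.00993 and 0.0149 with PDR3, where 18.7% of all genes were called. They were 0.0259 and 0.0237 in pdr3Δ cells, where 15.4% of all genes were called. GCY1, the glycerol dehydrogenase gene, was then called higher in PSD1OE pdr3Δ cells (log2 fold change 0.37, SE 0.092, edgeR adjusted p = 0.0262). It had 718, 722 and 677 CPM there, against 582, 627 and 444 CPM in MTSMge1 pdr3Δ cells, with no overlap. In the averaged fit with the block, where 35.4% of all genes were called, the 3 called members were GAL3, GAL4 and GCY1.

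None of the genes of uptake and breakdown was called between PSD1OE and MTSMge1 cells. Averaged over genotypes, their log2 fold changes were 0.03 for GAL1, 0.02 for GAL2, 0.07 for GAL7 and 0.07 for GAL10, with SEs of 0.056 to 0.078. The 95% intervals of these folds lay between 0.924 and 1.18. PGM2 stood at -0.13 with an SE of 0.31, too uncertain to place. MTH1 stood at -0.08 (SE 0.073).

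Set against MTSMss116, both other constructs gave slightly higher values for most members, and none passed the test. In MTSMge1 over MTSMss116, all 10 log2 fold changes were positive (PGM2 turned negative without any 1 of 4 of the 6 libraries), with a median of 0.22 and a range of 0.04 to 0.32, against a median of -0.0025 over all genes tested. Because the members share libraries and many of them varied together, these 10 signs are not separate observations. No member was called by edgeR or by DESeq2, and edgeR called 0.647% of all genes. An unadjusted p under 0.05 was reached by 1 member (MTH1), as by 434 of 6184 genes tested. GAL10 had 6512, 7324 and 6301 CPM in MTSMge1 libraries, against 5210, 6233 and 5838 CPM in MTSMss116 libraries. GAL80 had 396, 406 and 369 CPM in MTSMge1 libraries, against 345, 350 and 323 CPM in MTSMss116 libraries. These were the 2 members of 10 whose groups did not overlap, as did those of 12.9% of all genes tested.

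In PSD1OE over MTSMss116, 7 log2 fold changes were positive and 3 negative, with a median of 0.20, against 0.0064 over all genes. edgeR called no member, where 6.16% of all genes were called. An unadjusted p under 0.05 was reached by 5 members, as by 1511 of 6168 genes tested. The groups did not overlap for 6 members, with GAL1, GAL2, GAL7, GAL10 and GAL80 higher in PSD1OE and GAL4 lower. Of all genes tested, 29.7% had groups without overlap there. GAL4 had 55.8, 56.2 and 54.2 CPM in PSD1OE libraries, against 66.9, 70.7 and 64.1 CPM in MTSMss116 libraries (log2 fold change -0.26, SE 0.081, edgeR adjusted p = 0.106). DESeq2, and a fit of all 5 groups, each called GAL4 lower and GAL10 and GAL80 higher, where they called 15.2% and 15.8% of all genes. Without MTSMss116 replicate 2, the library with the highest PGM2 of all, edgeR called GAL7, GAL10 and GCY1 higher (adjusted p of 0.0457, 0.0450 and 0.0306), values that ran up to 0.480, 0.442 and 0.566 over the alternatives. In that setting 24.2% of all genes were called, against 0.806 to 3.26% without any other 1 of the 6 libraries. A block by replicate number called no member here, where it called 14.1% of all genes. The MTSMss116 libraries serve in both comparisons, so these are not independent of each other.

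Loss of PDR3 went with slightly lower values of every member under both constructs, except that GAL4 under PSD1OE and MTH1 and PGM2 under MTSMge1 changed sign when certain single libraries were left out. Under PSD1OE the 10 log2 fold changes ran from -0.29 to -0.04 with a median of -0.10, against -0.0059 over all genes. Under MTSMge1 they ran from -0.40 to -0.03 with a median of -0.15, against 0.0023 over all genes. The members were read from the same libraries and many of them varied together, so these signs are not 10 separate observations. edgeR and DESeq2 called no member in either comparison. An unadjusted p under 0.05 was reached by 2 members under PSD1OE, as by 811 of 6150 genes tested. Under MTSMge1 it was reached by 1 member, as by 323 of 6184 genes tested. In these comparisons edgeR called 0.715% and 0.728% of all genes. The groups did not overlap for GAL3, GAL7, GAL10 and GAL80 under PSD1OE and for GAL2 and GAL3 under MTSMge1, each lower in pdr3Δ cells. Of all genes tested, 16.9% under PSD1OE and 10.8% under MTSMge1 had groups without overlap in either direction.

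GAL3 was the member with the most negative averaged value. It was at 373 ± 37.8 CPM in PSD1OE pdr3Δ cells, against 445 ± 26.7 CPM in PSD1OE cells. In MTSMge1 pdr3Δ cells it was at 467 ± 21.2 CPM, against 614 ± 102 CPM in MTSMge1 cells (SD, n = 3). Averaged over constructs its log2 fold change was -0.33 (SE 0.085, edgeR adjusted p = 0.109), where edgeR called no member and 1.25% of all genes. An unadjusted p under 0.05 was reached there by 3 members, as by 949 of 6238 genes tested. DESeq2 called GAL3 (adjusted p = 0.0132) among 2.85% of all genes. Without MTSMge1 replicate 3, the edgeR adjusted p of GAL3 was 0.0142, where 3.48% of all genes were called, and over all alternatives it ran from 0.00747 to 0.289.

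GAL7, the uridylyltransferase gene, had 3618, 3394 and 3231 CPM in PSD1OE pdr3Δ libraries, against 4284, 3889 and 3734 CPM in PSD1OE libraries. It had 3209, 3455 and 3018 CPM in MTSMge1 pdr3Δ libraries, against 3820, 4295 and 3223 CPM in MTSMge1 libraries. Each pdr3Δ library was below the library of the same number with PDR3. The averaged log2 fold change was -0.23 (SE 0.078, edgeR adjusted p = 0.252). Same-number pairs went the same way without exception for GAL2, GAL3, GAL10, GAL80 and PGM2. The share of all genes with such pairs was not computed, and the numbers were not shown to be pairs. These members were also read from the same libraries, so no weight is given to that count. Of the members only GAL7 held a Pdr3-type core, and any part of that core in these values was not tested.

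Blocked by replicate number, the genotype comparisons gave calls, all lower in pdr3Δ cells. These calls rest on taking the numbers as pairs, which the correlations between libraries did not establish. Under PSD1OE they were GAL3 (log2 fold change -0.26), GAL7 (-0.22) and PGM2 (-0.28), with edgeR adjusted p-values of 0.0404, 0.0200 and 0.0370, where 9.80% of all genes were called. Under MTSMge1 they were GAL3 (-0.39), GAL7 (-0.22) and GCY1 (-0.34), with edgeR adjusted p-values of 0.0245, 0.0335 and 0.0233, where 5.98% of all genes were called. Averaged over constructs, GAL3, GAL7, GAL80 and PGM2 were called, with edgeR adjusted p-values of 0.00747, 0.0117, 0.0439 and 0.0420, where 19.4% of all genes were called. GAL1 (log2 fold change -0.07, SE 0.037) and GAL4 (-0.04, SE 0.051) were not.

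The genotype effect was compared between constructs by its interaction. No member was called with or without the block, none had an unadjusted p under 0.05 either way, and DESeq2 called none. Of all genes, 0.0160% were called, or 0.128% with the block. An unadjusted p under 0.05 was reached by 181 of 6238 genes tested, or by 364 with the block. For GAL3 the effect under PSD1OE differed from that under MTSMge1 by 0.14 on the log2 scale (SE 0.17), and for GAL7 by 0.0078 (SE 0.16). The intervals of these differences are wide, for GAL3 a fold of 0.852 to 1.42, and do not show that the effects were alike.

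**Figure D3:**
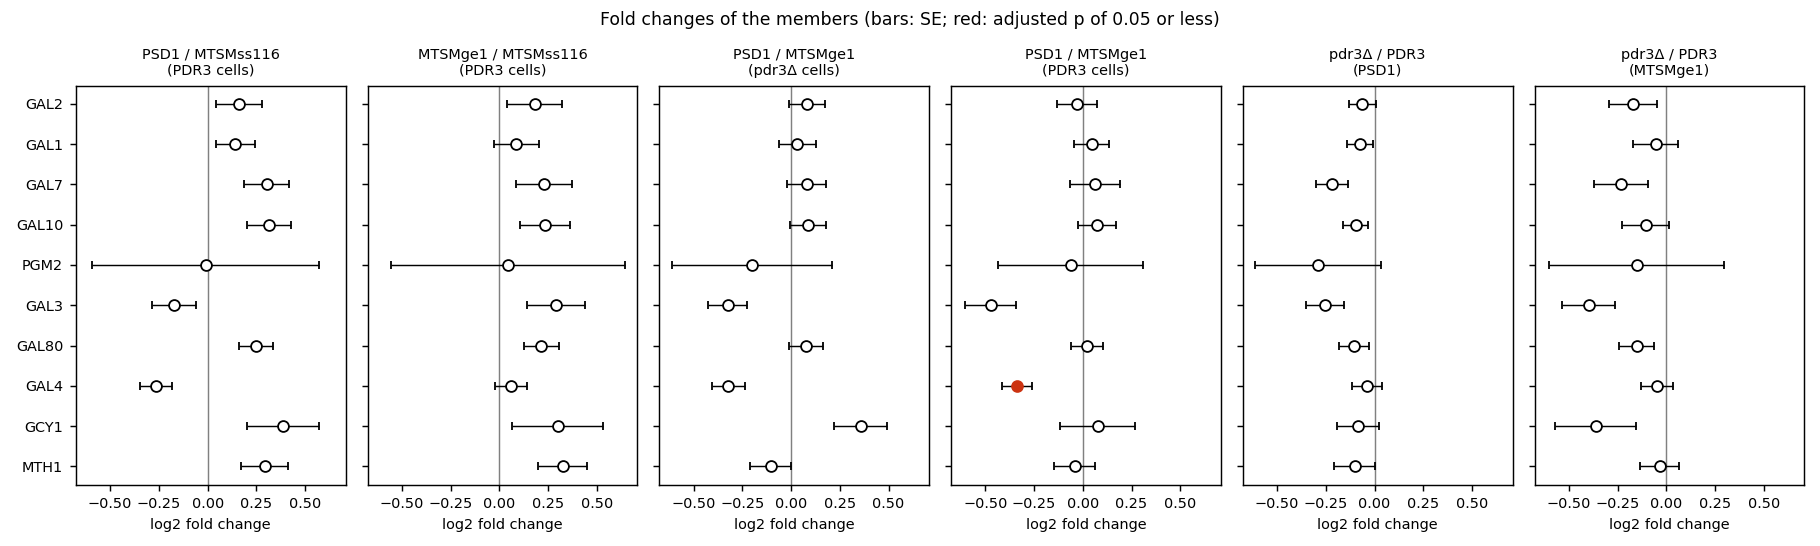
Log2 fold changes of the members (horizontal axis, points) with their SE (bars) in the 6 pairs of groups, from the fits without a block. The red point, GAL4 in PSD1OE over MTSMge1 with PDR3, is the only one with an edgeR adjusted p of 0.05 or less. In the genotype comparisons all points lie left of 0.

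The widest range of any member, that of PGM2, lay between replicate numbers and not between groups. PGM2, the phosphoglucomutase gene, had 138, 145 and 71.1 CPM in replicates 1, 2 and 3 of PSD1OE pdr3Δ cells, against 189, 159 and 84.8 CPM in PSD1OE cells. It had 160, 186 and 60.6 CPM in MTSMge1 pdr3Δ cells, against 172, 196 and 81.1 CPM in MTSMge1 cells, and 114, 276 and 50.9 CPM in MTSMss116 cells. Replicate 3 was the lowest in each of the 5 groups, at 0.261 to 0.503 times the mean of the other two. The 5 libraries numbered 3 held 50.9 to 84.8 CPM and the other 10 held 114 to 276 CPM, without overlap.

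The replicate number was tested after the group means, over all 15 libraries. That test called 4 of the 10 members, close to the share of 36.3% over all genes. The called members were PGM2 (edgeR adjusted p = 0.000723), GCY1 (0.00316), MTH1 (0.0108) and GAL7 (0.0351). GAL7 lost that call without any 1 of 11 of the 15 libraries, with adjusted p up to 0.182. All 4, and also GAL80, were lowest in replicate 3 of every group, whereas GAL1 was lowest in replicate 3 of none. GCY1 in replicate 3 was 0.630 to 0.939 times the mean of the other two. The labels name no batch for the replicate numbers, and what they stand for was not tested.

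After group means were removed, GAL3 and GAL7 followed each other most closely among the member pairs (r = 0.952), then GCY1 and PGM2 (r = 0.925) and GAL2 and GAL10 (r = 0.895). GAL4 ran against GAL1 (r = -0.459). These are descriptions over 15 libraries that share replicate numbers and scaling. Outside the regulon, the genes whose level was most like the mean of GAL1, GAL2, GAL7 and GAL10 over the 15 libraries, among 5446 genes with at least 10 CPM, were TDA1 (r = 0.858), ARC18 (0.856), PTC6 (0.855), TBS1 (0.838) and CSG2 (0.836). After group means they were MLF3 (0.897), EDS1 (0.879), PCL7 (0.876), BAP2 (0.846) and IAI11 (0.845).

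**Figure D4:**
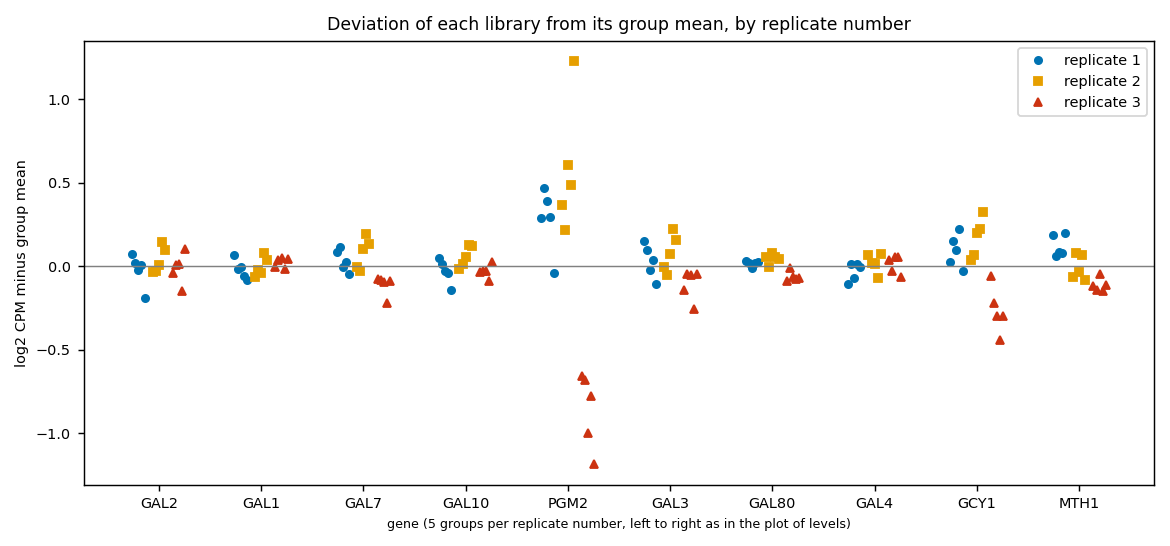
Deviation of each library from its group mean in log2 CPM (vertical axis) for each member (horizontal axis), with symbols for the replicate number and the 5 groups side by side. All 5 libraries numbered 3 lie below 0 for PGM2, GCY1, MTH1, GAL7 and GAL80.

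The constructs were driven by the GAL1-10 promoter, and their reads were compared between PDR3 genotypes within a construct. Construct copy number was not measured, and the strain list names no plasmid for the PSD1OE strain with PDR3. The comparison is therefore not a reading of the promoter alone. Construct reads also include the chromosomal gene, and the presequence constructs hold only part of theirs. Levels of these reads are therefore not comparable between constructs. PSD1 reads averaged 16806 ± 1303 CPM in PSD1OE pdr3Δ cells, against 16434 ± 962 CPM in PSD1OE cells (log2 fold change 0.03, SE 0.082, edgeR adjusted p = 0.887). MGE1 reads averaged 8016 ± 358 CPM in MTSMge1 pdr3Δ cells, against 7521 ± 421 CPM in MTSMge1 cells (log2 fold change 0.09, SE 0.12, edgeR adjusted p = 0.862). MSS116 reads averaged 7171 ± 628 CPM in MTSMss116 cells (SD, n = 3). PSD1 and MGE1 reads were thus not called between PDR3 genotypes. URA3, the marker carried with each construct, averaged 9414 ± 103 CPM in PSD1OE pdr3Δ cells, against 7838 ± 515 CPM in PSD1OE cells (log2 fold change 0.26, SE 0.072, edgeR adjusted p = 0.241). With the replicate block it was called higher in PSD1OE pdr3Δ cells (log2 fold change 0.26, SE 0.041, edgeR adjusted p = 0.00863). Between constructs, URA3 averaged 7838 ± 515 CPM in PSD1OE cells, against 14500 ± 1444 CPM in MTSMge1 cells (log2 fold change -0.90, SE 0.11, edgeR adjusted p = 0.00770).

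URA3 was also lower in PSD1OE pdr3Δ than in MTSMge1 pdr3Δ cells (log2 fold change -0.73, SE 0.15, edgeR adjusted p = 0.0431). It thus moved with GAL3 and GAL4 between these constructs, and its part in their difference was not tested.

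Of 7 other genes bound by Gal4 or paralogous to a member, 1 was called in PSD1OE over MTSMss116 and 1 in the averaged comparison of PSD1OE with MTSMge1, where 6.16% and 21.8% of all genes were called, and none in the other comparisons between groups. PCL10, a Pho85 cyclin gene with a single Gal4-type site, had 116, 113 and 116 CPM in PSD1OE libraries, against 71.4, 94.1 and 71.0 CPM in MTSMss116 libraries (log2 fold change 0.56, SE 0.12, edgeR adjusted p = 0.0446). PGM1, the minor phosphoglucomutase gene, was lower in PSD1OE than in MTSMge1 cells (log2 fold change -0.19, SE 0.054, edgeR adjusted p = 0.0267). In the test of the replicate number, which called 36.3% of all genes, 5 of the 7 were called, namely PCL10, the uracil permease gene FUR4, the aminopeptidase gene LAP3, YPR1, which is the relative of GCY1, and UGP1, which makes UDP-glucose. STD1, the relative of MTH1, was called in no comparison. The block added calls in this list. Its fits called 35.4% of all genes between constructs averaged over genotypes and 19.4% between genotypes averaged over constructs. They called 14.1% in PSD1OE over MTSMss116, 18.7% in PSD1OE over MTSMge1 with PDR3 and 9.80% between genotypes under PSD1OE. Averaged over genotypes, PCL10 was then higher (log2 fold change 0.28, SE 0.075) and LAP3 (-0.25, SE 0.066) and UGP1 (-0.23, SE 0.047) were lower in PSD1OE than in MTSMge1 cells. Averaged over constructs, PCL10 (-0.27, SE 0.075) and YPR1 (-0.25, SE 0.060) were lower and FUR4 (0.19, SE 0.062) was higher in pdr3Δ cells. YPR1 was also higher in PSD1OE than in MTSMss116 cells (0.48, SE 0.096). With PDR3, LAP3 (-0.23, SE 0.067) and UGP1 (-0.27, SE 0.071) were lower in PSD1OE than in MTSMge1 cells. Under PSD1OE, PCL10 (-0.28, SE 0.059) and YPR1 (-0.23, SE 0.052) were lower in pdr3Δ cells.

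Of 14 genes of glucose repression and of coactivators, only the repressor genes MIG2 and NRG1 were called between groups without the block. The 6 pairs of groups called 0.647 to 6.16% of all genes. Averaged over genotypes, 2 of the 14 were called between PSD1OE and MTSMge1, where 21.8% of all genes were called. Averaged over constructs, 1 was called between genotypes, where 1.25% of all genes were called. MIG2, which acts beside Mig1, had 17.0, 17.7 and 16.8 CPM in PSD1OE pdr3Δ libraries, against 46.7, 50.3 and 43.5 CPM in PSD1OE libraries (log2 fold change -1.45, SE 0.099, edgeR adjusted p = 0.000111). It had 22.6, 26.3 and 19.2 CPM in MTSMge1 pdr3Δ libraries, against 77.1, 68.9 and 70.0 CPM in MTSMge1 libraries (log2 fold change -1.67, SE 0.13, edgeR adjusted p = 0.000845). The MTSMss116 libraries held 18.4, 25.3 and 13.6 CPM, so that MIG2 was near its pdr3Δ level there despite an intact PDR3. It was higher in both other PDR3 groups than in MTSMss116 cells, by a log2 fold change of 1.31 for PSD1OE (SE 0.21, edgeR adjusted p = 0.0168) and 1.93 for MTSMge1 (SE 0.22, edgeR adjusted p = 0.0110). It was lower in PSD1OE than in MTSMge1 cells with PDR3 (-0.63, SE 0.091, edgeR adjusted p = 0.0122). The 500 bases before MIG2 held 1 Pdr3-type core and 1 Gal4-type site.

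NRG1, another repressor gene of glucose repression, had 25.5, 34.7 and 30.1 CPM in PSD1OE libraries, against 12.6, 20.4 and 15.3 CPM in MTSMge1 libraries (log2 fold change 0.89, SE 0.20, edgeR adjusted p = 0.0461). It was also higher than in MTSMss116 cells (1.06, SE 0.24, edgeR adjusted p = 0.0496). Both repressor genes thus differed between groups by more than any member of the regulon did in the same comparisons. SNF1, SNF4, SIP1, REG1 and GLC7, which encode kinase and phosphatase subunits that control Mig1, were called in no comparison, with or without the block. With it, MIG1 was higher in PSD1OE than in MTSMge1 cells averaged over genotypes (log2 fold change 0.17, SE 0.054), where 35.4% of all genes were called. Averaged over constructs, SIP2 was lower (-0.30, SE 0.070) and the hexokinase gene HXK2 higher (0.16, SE 0.041) in pdr3Δ cells. That fit called 19.4% of all genes. The test of the replicate number called NRG1, GAL83, SIP2, HXK2, TUP1, CYC8 and GAL11, 7 of the 14, where it called 36.3% of all genes.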

How the data were processed

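Per the labels and the methods, the authors made libraries with a stranded mRNA kit, read pairs of 59 bases, aligned these to R64 with the DRAGEN RNA app and counted reads per gene with featureCounts. The strand setting of the counting is not given in the sources used here. The deposited values are whole-number counts without normalization, and every column was used. Groups came from the titles, and replicate numbers from the same titles. The labels give YPR as the medium. The design text calls the replicates biological without naming separate cultures, so p-values measure the spread between these libraries.

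From the counts, edgeR 4.0.16 in R 4.3.3 fitted quasi-likelihood F-tests (normalization by the trimmed mean of M-values, a filterByExpr filter, and p-values adjusted by Benjamini-Hochberg over the genes that passed it). A gene was called at an adjusted p of 0.05 or less, with no threshold on the fold. Pairs of groups were fitted alone, averages and the interaction on the 4 PSD1 and MTSMge1 groups, and the replicate number on all 5. SEs came from the F statistic. DESeq2 1.42.0 and other normalizations, filters and sample sets were alternatives. The fits were tested on simulated data. With 3 libraries per group, an exact permutation test of 1 gene cannot pass the threshold.

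Named genes were all 10 members, every gene called in a list of 7 other Gal4-bound genes and paralogs or of 14 genes of glucose repression and coactivators, and the 5 genes most like the members by Pearson's r. Members and lists were chosen with earlier results of these data known. Replicate numbers were taken as pairs where every same-numbered pair of libraries had deviations correlated above 0.1. That held for PSD1OE with MTSMss116 (r of 0.118 to 0.755), PSD1OE with MTSMge1 (0.217 to 0.578 with PDR3 and 0.256 to 0.665 without), both genotype pairs (0.181 to 0.665 and 0.302 to 0.708) and the 4 groups (0.113 to 0.715), and not for MTSMge1 with MTSMss116 (from -0.053). This rule does not establish that the libraries were pairs, since some differently numbered libraries also passed it. PSD1OE replicate 1 had r of 0.228 with PSD1OE pdr3Δ replicate 2, against 0.181 with its replicate 1. MTSMge1 replicate 1 had 0.389 with MTSMge1 pdr3Δ replicate 2, against 0.302 with its replicate 1. Over all groups the mean r was 0.487 for same numbers and -0.241 for different numbers. Deviations cancel out within a group, so the second value largely follows from the first and is not separate support for pairs. Sequences and positions came from the RefSeq R64 annotation and were searched with Python 3.11.15.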

Additional observations from a re-analysis of the deposited data

How the results depend on the processing

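No member that was called changed direction under any alternative. Of 1650 values of members under the alternatives, 1597 kept their side of the threshold, 19 lost a call and 34 gained one, and 56 values that were not called had the other sign. Under DESeq2 the number of members called was 3 in PSD1OE over MTSMss116, 2 in PSD1OE over MTSMge1 with PDR3, 2 in pdr3Δ cells and 1 in the averaged genotype comparison, where 15.2%, 10.5%, 9.53% and 2.85% of all genes were called. With all 5 groups in a fit it was 3, 2 and 1 in the first 3 of these, beside 15.8%, 6.83% and 7.41% of all genes. Without a filter on low counts it was 0 in PSD1OE over MTSMge1 with PDR3, where GAL4 had an edgeR adjusted p of 0.0509. The cause was not tested.

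With the replicate number as a block, 2 members were called in PSD1OE over MTSMge1 with PDR3, 3 in pdr3Δ cells, 3 in each genotype comparison and 4 in the averaged one. Of all genes, the construct fits called 18.7% with PDR3 and 15.4% in pdr3Δ cells. The genotype fits called 9.80% under PSD1OE, 5.98% under MTSMge1 and 19.4% in the average. The block changed no other count of members by more than 1.5 times. It called none in MTSMge1 over MTSMss116, where not every same-numbered pair of libraries passed the correlation rule.

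With 1 library left out at a time, the number of members called ran from 0 to 3 in PSD1OE over MTSMss116, 0 to 1 in PSD1OE over MTSMge1 with PDR3 and 0 to 1 in the averaged genotype comparison. The share of all genes called ran from 0.806 to 24.2%, 0.660 to 6.91% and 0.925 to 3.48% in these, and from 0.0485 to 5.25% in PSD1OE over MTSMge1 in pdr3Δ cells. Without PSD1OE replicate 3 it was 1.97% in pdr3Δ over PDR3 cells under PSD1OE. An arm left with fewer libraries was fitted with the spread pooled over all libraries. The replicate number kept PGM2, GCY1 and MTH1, while GAL7 had an adjusted p of 0.0542 when members and construct genes were left out of library sizes, and GAL3 (0.0462) and GAL80 (0.0218) were called with total library sizes. Small differences are the limit of these data, since 3 libraries per group and a replicate effect in 36.3% of all genes leave differences of the size seen here near the threshold, and without uninduced cells the strength of induction itself was not measured.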
